A study of Mus musculus with 3 samples.

Results

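The chemokine genes of the thymic medulla described here are Ccl17, Ccl22, Ccl19, Ccl20, Xcl1, Cxcl9, Cxcl10, Cx3cl1 and Ccl5. They were chosen by name, and all 9 were found among 19937 genes on the array. The cells were mature medullary thymic epithelial cells (mTECs) sorted as EpCAM+, CD45-, Ly51low and MHC-II high from mice labelled as strain C57b/6 and aged 6 weeks, with typically 3 mice pooled and about 30000 cells extracted per library. WT stands for Sirt1fl/fl mice without Cre, Sirt1cKO for Sirt1fl/fl mice that also carry Foxn1-Cre, and AireKO for Aire–/– mice. Foxn1-Cre acts in thymic epithelium as a whole, cortex included, and no library carried Cre without the floxed allele or was labelled as an Aire-sufficient littermate of AireKO. Each genotype had 1 library, so there is no replicate check, no p-value, and each difference compares 2 libraries rather than 2 conditions.

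Chemokines are small secreted proteins that steer leukocytes through receptors on the cell surface, and they are named by the spacing of their first cysteines (C, CC, CXC and CX3C). In the thymus, medullary chemokines draw positively selected thymocytes out of the cortex and place dendritic cells beside the epithelium that displays self-antigens. CCR7 and CCR4 are the receptors on thymocytes most often linked to that move, XCR1 marks cross-presenting dendritic cells, and CXCR3 ligands are classical interferon-induced genes. Aire is the regulator that lets mTECs express peripheral tissue antigens, and Sirt1 is a protein deacetylase. Each comparison with WT sets a library labelled as knocked out for Aire or Sirt1 beside the WT library.

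Several facts about the libraries precede the results. The free-text description of each knockout library gives the other one's genotype, so AireKO and Sirt1cKO mean the libraries with those titles. A whole-transcript probe set can lie outside a deleted exon and checks neither label. Aire stood at log2 intensities of 11.97 in WT, 11.55 in AireKO and 11.24 in Sirt1cKO, Sirt1 at 11.40, 11.42 and 11.27, and Foxn1 at 10.47, 9.43 and 9.99. The libraries also differed in Xist, at 12.17, 6.75 and 11.46, in the Y-linked genes Eif2s3y, at 4.23, 9.75 and 8.92, and Uty, at 4.78, 8.87 and 8.43, and in the MHC class II gene H2-Ea, at 5.60, 13.23 and 5.90, so genotype cannot be told apart from sex or other background differences. H2-Ea was above the background signal in AireKO alone, so the shared strain label does not show a shared genetic make-up. All 17 genes listed as markers of mature medullary epithelium were above background in every library. Krt5 and Krt14 among them are also listed for immature medullary epithelium. Background is the 95th percentile of olfactory receptor genes in a library, at 6.02, 6.89 and 6.34. Because it was highest in AireKO, a dim gene can drop out there without a lower signal. Counts above background therefore cannot be compared directly between libraries. Summed intensities of a list include its genes within background, so for dim lists they carry part of each library's background too. The pan-leukocyte gene Ptprc, which encodes CD45, was above background at 7.77, 7.64 and 7.66 despite the CD45- gate. In such bulk samples, fewer cells of a type and less RNA per cell cannot be told apart.

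In AireKO, 3 of the 9 chemokines were at least 2-fold lower than in WT: Ccl22, Ccl5 and, by the brightest of its 4 probe sets, which disagree, Ccl19. Cx3cl1 was just short of that line, at 1.97-fold lower. Cxcl9 and Cxcl10 lay on the other side, 1.52-fold and 1.36-fold above WT. Genes with a top log2 value of 6.81 or more, the median over the whole table, counted as measured. All 9 members passed, Xcl1 with a top value equal to that limit after rounding. Of the 12556 measured genes, 8.46% passed 2-fold downward and 2.68% upward in AireKO. These shares became 4.36% and 5.62% when each library was centred on its median, and Ccl22 was then the single member past 2-fold. The members' median difference was -0.59, against -0.19 for all measured genes, and 7 of 9 were below 0, against 63.7% of measured genes. That median is the value of Xcl1, which was within background in AireKO. Over the other 8 it was -0.77, with 6 below 0.

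In Sirt1cKO, 0 of the 9 chemokines differed from WT by 2-fold in either direction with the brightest probe set of each gene, although 2 dimmer probe sets of Ccl19 were past 2-fold higher, at 1.18 and 1.25. Ccl5 had the largest difference on the brightest probe sets, at 1.72-fold lower. Cxcl10, Ccl17 and Cxcl9 were 1.39-fold, 1.31-fold and 1.28-fold above WT, and the other 5 lay within 1.26-fold of it. Of all measured genes, 1.68% passed 2-fold downward and 0.804% upward, or 1.18% and 1.11% after median centring. The members' median difference was -0.020, against -0.068 for all measured genes, and it ranged from -0.053 to 0.077 over 5 ways of scaling the arrays.

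**Figure D1:**
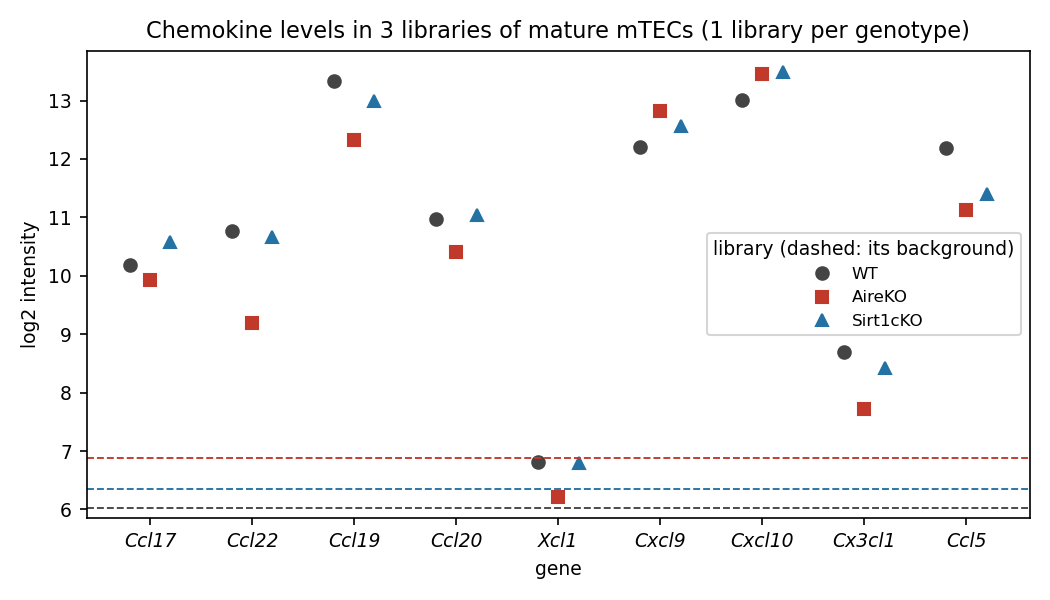
Log2 intensity of the 9 chemokine genes in the WT, AireKO and Sirt1cKO libraries, 1 point per library, with each library's background as a dashed line. Points compare libraries within a gene and not genes with each other; Ccl22 stands at 9.19 in AireKO against 10.77 and 10.66, and Xcl1 in AireKO lies below that library's background.

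Ccl22 and Ccl17 are both ligands of CCR4, and their values differed from each other. The log2 intensities of Ccl22 in WT, AireKO and Sirt1cKO were 10.77, 9.19 and 10.66. AireKO was the low library, and the other pair lay within 0.11 of each other. The difference of AireKO from WT was -1.58, or 2.98-fold lower, and 1.91% of measured genes had a lower value. It ranged from -1.58 to -1.31 over the 5 scalings and was past 2-fold in all 5. Ccl17 stood at 10.18, 9.92 and 10.57, so its AireKO value was 1.19-fold below WT. That small difference changed sign after median centring, to 0.016. Its Sirt1cKO value was 0.39 above WT on the log2 scale, higher than 90.7% of measured genes, and stayed above WT under each of the 5 scalings. Their receptor gene Ccr4 was itself above background in these sorted cells, at 11.22, 10.45 and 10.97.

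These are the 250 bases before the RefSeq start site of each CCR4 ligand gene (GRCm38.p6, plus strand, 5′ to 3′), shown because the pair share a receptor and a chromosomal neighbourhood but not their values. The Ccl22 window is chr8:94745434-94745683 and the Ccl17 window chr8:94810203-94810452, the latter inside the annotated gene span, which begins at 94809380. Capitals mark matches to the motifs spelled out further on, of which the Ccl22 window held 0.
Ccl22: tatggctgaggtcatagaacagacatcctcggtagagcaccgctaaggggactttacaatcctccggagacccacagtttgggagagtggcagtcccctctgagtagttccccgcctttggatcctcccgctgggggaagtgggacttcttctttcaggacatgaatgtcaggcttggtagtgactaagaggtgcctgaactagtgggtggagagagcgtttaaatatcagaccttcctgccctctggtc
Ccl17: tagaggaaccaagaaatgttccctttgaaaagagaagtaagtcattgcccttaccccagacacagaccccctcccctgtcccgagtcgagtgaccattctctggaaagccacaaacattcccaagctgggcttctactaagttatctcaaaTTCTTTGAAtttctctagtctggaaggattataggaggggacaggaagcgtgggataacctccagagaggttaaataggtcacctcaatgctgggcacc

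Ccl22, Cx3cl1 and Ccl17 are consecutive chemokine genes on chromosome 8, with starts at 94745684, 94772180 and 94809380. Cx3cl1 encodes a chemokine tethered to the membrane by a mucin stalk, which acts as an adhesion molecule until it is shed. It stood at 8.69 in WT, 7.71 in AireKO and 8.42 in Sirt1cKO. AireKO was again the low library, at -0.98, and its value ranged from -0.98 to -0.71 over the scalings. Along the cluster, the AireKO differences were therefore -1.58, -0.98 and -0.26, and the Sirt1cKO differences -0.11, -0.27 and 0.39. The flanking genes that start within 100 kb of a member and were measured are not chemokines. Their AireKO and Sirt1cKO differences were -0.92 and -0.38 for Arl2bp, -0.36 and -0.46 for Ciapin1, 0.10 and -0.027 for Coq9, and 0.43 and 0.43 for Polr2c. The Sirt1cKO value of Coq9 changed sign after median centring. The 4 listed genes of Cx3cl1 shedding (the proteases Adam10 and Adam17 and their partners Rhbdf1 and Rhbdf2) had median differences of -0.40 and -0.21, and 0 of 4 were past 2-fold in either knockout. Rhbdf1 was the lowest of them in AireKO, at -0.98.

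**Figure D2:**
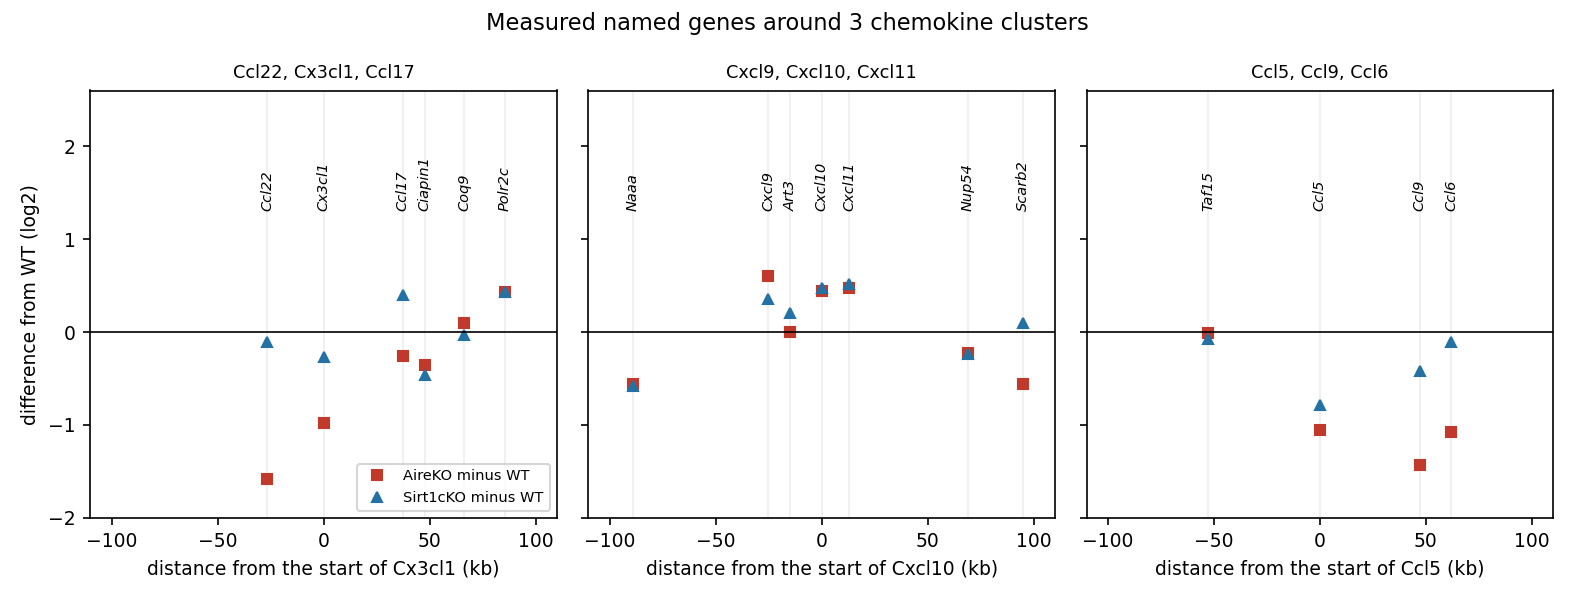
Difference from WT on the log2 scale for AireKO and Sirt1cKO, plotted against the distance in kb of each gene's start from the start of Cx3cl1, Cxcl10 or Ccl5, for measured genes within 100 kb other than unnamed Rik clones. The AireKO points of Ccl22, Cx3cl1 and Ccl17 stand at -1.58, -0.98 and -0.26, whereas Cxcl9, Cxcl10 and Cxcl11 all lie above 0 in both knockouts.

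Ccl19, a CCR7 ligand that guides thymocytes into the medulla, was represented by 4 probe sets that disagreed. The brightest, used for the gene, stood at 13.33 in WT, 12.32 in AireKO and 13.00 in Sirt1cKO, with differences from WT of -1.00 and -0.33. The second, at 12.57, 12.16 and 12.28, had the same directions, at -0.41 and -0.29. The other two went the opposite way. Probe set 10504132 stood at 10.31, 11.20 and 11.49, and probe set 10504188 at 8.25, 10.15 and 9.50, which makes both knockouts higher than WT there. All 4 are annotated to the same 3 transcript accessions, and RefSeq names 4 further Ccl19-like entries on chromosome 4 assemblies beside Ccl19 itself (Ccl19-ps1, Ccl19-ps2, Ccl19-ps3 and Gm2023). Which copy each probe set reads was not tested, the value of Ccl19 is uncertain, and no direction is drawn for it. With the mean of the 4 probe sets, the AireKO difference was 0.34 and the Sirt1cKO difference 0.45. Even for the brightest probe set, the AireKO difference was past 2-fold in 1 of 5 scalings. The other CCR7 ligand family, Ccl21, shares a probe set among several gene symbols and was not analysed here. The receptor gene Ccr7 stood at 10.48, 11.07 and 10.59.

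**Figure D3:**
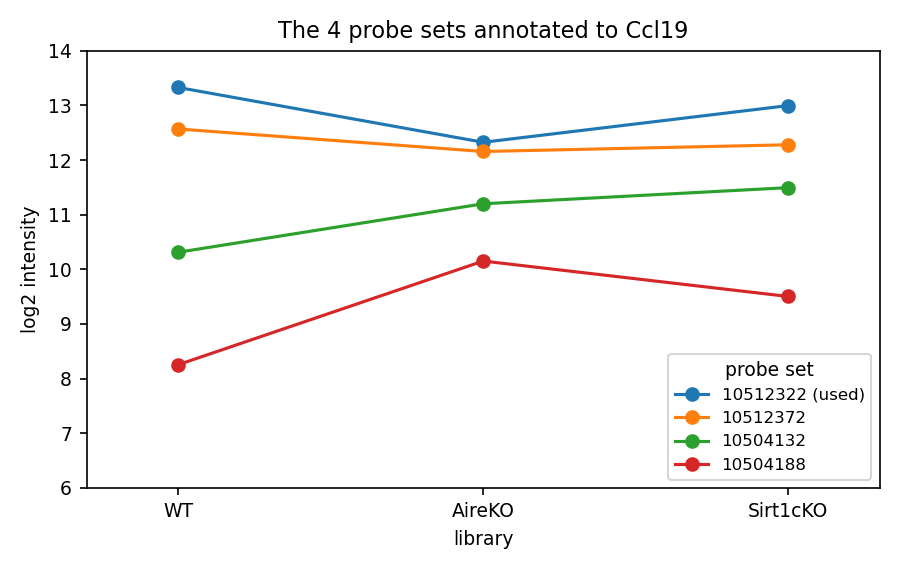
Log2 intensity of each of the 4 probe sets annotated to Ccl19 in the WT, AireKO and Sirt1cKO libraries, with lines joining the values of 1 probe set. The brightest pair is lower in both knockouts than in WT, and the dimmer pair higher, at 11.20 and 10.15 in AireKO against 10.31 and 8.25 in WT.

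Ccl20 and Xcl1 attract other partners of the medulla. Ccl20, the ligand of CCR6 on regulatory and IL-17-producing T cells, stood at 10.97 in WT, 10.40 in AireKO and 11.03 in Sirt1cKO. AireKO was low and the other pair lay within 0.064. Its AireKO difference of -0.57 ranged to -0.30 over the scalings. Xcl1, the ligand of XCR1 and a chemokine whose expression in mTECs has been tied to Aire, was dim, at 6.81, 6.22 and 6.79. The AireKO value was within that library's background of 6.89, which is also above the WT value, so no fold is given for AireKO. WT and Sirt1cKO were both above their own backgrounds and 0.020 apart. At this signal, a loss of Xcl1 in AireKO was not detectable. Ccr6 stood at 7.56, 7.88 and 7.90 and Xcr1 at 6.93, 7.09 and 7.09, each within 1.27-fold of WT in both knockouts.

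The CXCR3 ligands Cxcl9 and Cxcl10 were the pair of members higher than WT in both knockouts. Cxcl9 stood at 12.21 in WT, 12.82 in AireKO and 12.57 in Sirt1cKO. Cxcl10 stood at 13.01, 13.46 and 13.49. WT was the low library for each. The AireKO differences were 0.60 and 0.44, higher than 92% and 87.3% of measured genes, and the Sirt1cKO differences were 0.36 and 0.47, higher than 89.4% and 93.5%. None of the 4 reached 2-fold, and all 4 stayed above 0 under each of the 5 scalings. Cxcl11, the remaining CXCR3 ligand and no member of the set, lies 12.9 kb from Cxcl10 and stood at 10.80, 11.27 and 11.31, with differences of 0.48 and 0.52. Art3, which starts between Cxcl9 and Cxcl10, differed by 0.0055 in AireKO and 0.20 in Sirt1cKO, the first with a sign that depended on the scaling. Naaa, on the other flank, differed by -0.56 and -0.58. Cxcr3, the receptor gene, was at 6.36 in WT and 6.98 in AireKO, a difference of 0.62, and within background in Sirt1cKO. The AireKO value was close to that library's background of 6.89, against 6.02 in WT, so the difference is uncertain.

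The 250 bases before the start sites of Cxcl9 and Cxcl10 are given because these genes were higher together (GRCm38.p6, minus strand of chr5:92328080-92328329 and chr5:92348890-92349139, 5′ to 3′, capitals marking motif matches).
Cxcl9: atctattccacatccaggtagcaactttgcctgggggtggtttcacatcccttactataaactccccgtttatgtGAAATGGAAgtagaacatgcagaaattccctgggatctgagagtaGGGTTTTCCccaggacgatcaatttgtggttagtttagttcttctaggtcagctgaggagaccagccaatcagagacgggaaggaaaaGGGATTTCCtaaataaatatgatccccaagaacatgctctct
Cxcl10: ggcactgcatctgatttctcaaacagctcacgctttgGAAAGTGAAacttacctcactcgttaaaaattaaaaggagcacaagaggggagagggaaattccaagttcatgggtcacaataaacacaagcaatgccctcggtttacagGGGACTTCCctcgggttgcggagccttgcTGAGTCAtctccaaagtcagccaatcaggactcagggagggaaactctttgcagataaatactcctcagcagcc

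Promoter windows from RefSeq were found for 8 of the 9 members, Ccl5 being the exception. The motifs, chosen after the sequences had been seen, were searched on both strands of the same 250 bases in 32851 promoters. An NF-kB-like motif, GGGNNTTCC, was in 4 of the 8 windows (Ccl19, Ccl20, Cxcl9 and Cxcl10) and in 4.98% of all promoters. Cxcl9 held it as GGGTTTTCC, from base 130 before the start, and as GGGATTTCC, from base 42, and Cxcl10 as GGGACTTCC, from base 103. The core of the interferon-stimulated response element, GAAANNGAA, was in 3 windows and in 7.13% of promoters. Cxcl10 and Ccl19 both held it as GAAAGTGAA, and Cxcl9 as GAAATGGAA. A GAS-like STAT motif, TTCNNNGAA, was in 1 window, that of Ccl17, and in 7.02% of promoters. The AP-1 motif TGANTCA was in 1 window, that of Cxcl10, and in 6.75% of promoters. The matches in these windows do not overlap each other. A match describes letters in the window and not a bound site.

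Interferons are the classical inducers of the CXCR3 ligands, and most listed genes of that pathway lay below WT in both knockouts. Of the listed inputs, 12 were on the array as single-symbol genes and 11 were measured. In AireKO, 10 of these 11 were below WT, against 63.7% of all measured genes. Ifnar2, Irf1 and Jak2 changed sign after median centring, which left 7. The median of all measured genes was then 0.083, so the 63.7% does not apply to that count. Lower by 2-fold or more were 2, against 8.46% of measured genes: Ifngr2, a chain of the interferon gamma receptor, at 12.22 in WT, 10.37 in AireKO and 11.56 in Sirt1cKO, and Stat2, at 8.81, 7.50 and 8.16. Ifng, the cytokine itself, was the single input at least 2-fold higher in AireKO, at 6.58 in WT, 8.37 in AireKO and 6.29, within background, in Sirt1cKO. Its AireKO difference was 1.79. Irf9, a partner of Stat2, differed by -0.97 in AireKO. In Sirt1cKO all 11 measured inputs were below WT, against 58.4% of measured genes, and 0 were past 2-fold. Ifnar2 changed sign there after median centring, and Ifng was within background. The list medians were -0.32 and -0.39, against -0.19 and -0.068 for all measured genes.

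Of 16 listed NF-kB inputs, 13 were measured. In AireKO 12 of them were below WT, with Ltbr within background, and in Sirt1cKO 11, against 63.7% and 58.4% of all measured genes. The medians were -0.51 and -0.30, against -0.19 and -0.068. Tnfrsf11a, the RANK receptor, changed sign in AireKO after median centring. Relb, a subunit of the non-canonical NF-kB pathway needed for the mTEC lineage, was the single one at least 2-fold lower in AireKO, at 9.19 in WT, 8.19 in AireKO and 8.53 in Sirt1cKO. It was past 2-fold in 1 of 5 scalings. Nfkb2, its partner, differed by -0.87 and -0.60, and Cd40, a receptor that activates the pathway, by -0.80 and -0.56. Against the list, Rel and Rela were above WT in Sirt1cKO, by 0.20 and 0.26. In AireKO they differed by 0.0035 and -0.33. Traf3, Chuk and Nfkb1 were not analysed. Ltbr, the lymphotoxin beta receptor, was at least 1.61-fold lower in AireKO, where it was within background, and differed by -0.15 in Sirt1cKO.

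Ccl5, an attractant of T cells and monocytes through receptors that include CCR1 and CCR3, was the member farthest below WT in Sirt1cKO, and it was below WT in AireKO as well. It stood at 12.18 in WT, 11.13 in AireKO and 11.40 in Sirt1cKO. WT was the high library. The differences were -1.06 and -0.78, and 7.3% and 3.85% of measured genes had lower values. The AireKO difference was past 2-fold in 1 of 5 scalings and ranged from -1.06 to -0.79, and the Sirt1cKO difference ranged from -0.78 to -0.69. Ccl9 and Ccl6, neighbours on chromosome 11, had AireKO differences of -1.43 and -1.07 and Sirt1cKO differences of -0.42 and -0.11. Taf15, on the other side, differed by -0.0085 in AireKO and -0.078 in Sirt1cKO, and both changed sign after median centring.

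T cells, natural killer cells and macrophages also make Ccl5, and dendritic cells make Ccl17 and Ccl22. Of 10 effector T and natural killer cell markers, 6, 4 and 4 were above background in WT, AireKO and Sirt1cKO, with summed intensities of 1429, 2068 and 1369. Gzmb, a cytotoxic granule protease, was at 6.84 in WT and within background in both knockouts, and Eomes differed by 1.22 in AireKO. The AireKO background of 6.89 is above the WT value of Gzmb, so its loss there was not detectable. Of the 9 macrophage and monocyte markers on the array, 9, 7 and 8 were above background, with sums of 6924, 4248 and 5135. Of the 8 measured, 6 were below WT in AireKO, Adgre1 among them within background. Lyz2 (-1.30 in AireKO), Cd14 (-1.56) and C1qc (-0.92) were the lowest, whereas Cd68 (0.67) and C1qb (0.14) were above WT in AireKO, and both also in Sirt1cKO (0.16 and 0.48). Of 12 dendritic cell markers, 10, 8 and 9 were above background, with sums of 6033, 5109 and 4682. Itgax (6.30 in WT, 6.35 in AireKO) and Siglech (6.15 and 6.68) dropped out in AireKO without a lower value. In AireKO, 6 of the 8 measured ones were above WT, among them Ccr7 (0.59) and Cd209a (0.57), whereas Fscn1 differed by -1.04 and -0.87. Clec9a was within background in every library, and Itgae likewise. Of the 10 thymocyte and T cell markers on the array, 8, 7 and 8 were above background, with sums of 1481, 1887 and 1896. Cd3d and Ptcra were within background in all 3 libraries, and Cd8b1 differed by 0.77 and 0.84. The part of these cells in the chemokine values was not tested.

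**Figure D4:**
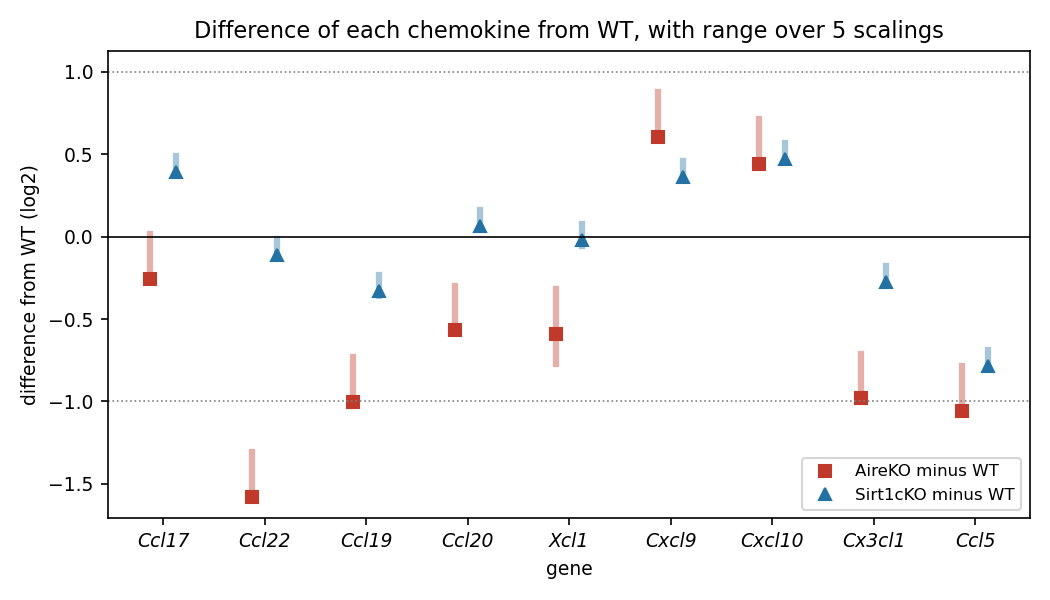
Difference of each chemokine from WT on the log2 scale in AireKO and Sirt1cKO (points, 1 library each side), with bars for the range over 5 scalings (none, quantile, loess, median centring, median difference set to 0) and dotted lines at 2-fold. Ccl22 in AireKO alone stays past the 2-fold line throughout its range, from -1.58 to -1.31.

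Setting Sirt1cKO directly against AireKO leaves WT out. Ccl22 was 2.76-fold higher in Sirt1cKO than in AireKO, and was the single member past 2-fold. Of measured genes, 2.72% passed 2-fold upward and 1.04% downward, Sirt1cKO against AireKO, or 1.66% and 1.8% after median centring. The Ccl22 difference of 1.47 was higher than 99.3% of measured genes and ranged from 1.29 to 1.47 over the scalings. Cx3cl1, Ccl17 and Ccl20 were higher in Sirt1cKO by 0.71, 0.65 and 0.63, and Ccl5 by 0.27. Cxcl9 was lower, at -0.24, and Cxcl10 lay at 0.033, with a sign that turned after median centring. The members' median was 0.63, against 0.11 for all measured genes. With the genotypes of the description fields in place of the titles, each of these signs would turn.

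Receptors of the members, with the atypical Ackr receptors left out, were followed as a list, of which 8 were on the array as single-symbol genes. Ccr1 and Ccr3 were within background in every library. The other 6 were above background in WT and AireKO, and 0 were past 2-fold in either knockout. Cx3cr1, the fractalkine receptor of macrophages and dendritic cells, had the largest difference, at 6.82 in WT, 7.71 in AireKO and 7.10 in Sirt1cKO. Its difference of 0.89 passed 2-fold in 2 of 5 scalings. For this dim gene, background was also higher in AireKO than in WT, at 6.89 against 6.02. The part of background in that difference was not tested. Ccr4 was the single receptor below WT in AireKO, at -0.76, the same side as Ccl22.

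Among 31 other chemokine ligands, 27 were on the array as single-symbol genes and 21 counted as measured. Past 2-fold in AireKO, 5 lay below and 1 above WT among the 19 that were above background in both libraries, and 0 of 21 lay past it in Sirt1cKO. For all measured genes, the shares in AireKO were 8.46% and 2.68%. After median centring, 2 of the 19 lay below and 3 above, so the balance depends on the scaling. Ppbp, a platelet chemokine (-2.77), and Ccl9 (-1.43) stayed at least 2-fold lower under all 5 scalings. Cxcl3 (-1.08) was past 2-fold in 2 of 5, and Ccl6 (-1.07) and Cxcl2 (-1.05) in 1 of 5. Ccl7 and Ccl2, monocyte attractants, were above WT by 0.87 and 0.83 and passed 2-fold in 4 and 3 of the scalings. Cxcl5 was at least 1.67-fold lower, as AireKO was within background. Ppbp, Cxcl5, Cxcl3 and Cxcl2 signal through CXCR2, the main chemokine receptor of neutrophils. Neutrophil and eosinophil markers were low in the same library: 10, 4 and 9 of 10 were above background in WT, AireKO and Sirt1cKO, with summed intensities of 6386, 1235 and 3117. Their part in those values was not tested. Ccl11, the eosinophil attractant eotaxin, was at least 2-fold higher under all 5 scalings, at 9.77, 10.80 and 9.69. Of the fibroblast and endothelial markers, 8, 6 and 7 of 10 were above background, with sums of 2348, 5232 and 2981, the AireKO excess resting on the matrix gene Dcn (difference 1.90). Whether Ccl11 follows them was not tested. Among ligands picked for the highest WT values, Ccl25, the CCR9 ligand of thymic epithelium, stood at 12.53, 12.46 and 12.46, differences whose signs turned after median centring, and the follicular chemokine Cxcl13 at 10.65, 10.96 and 10.24.

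**Figure D5:**
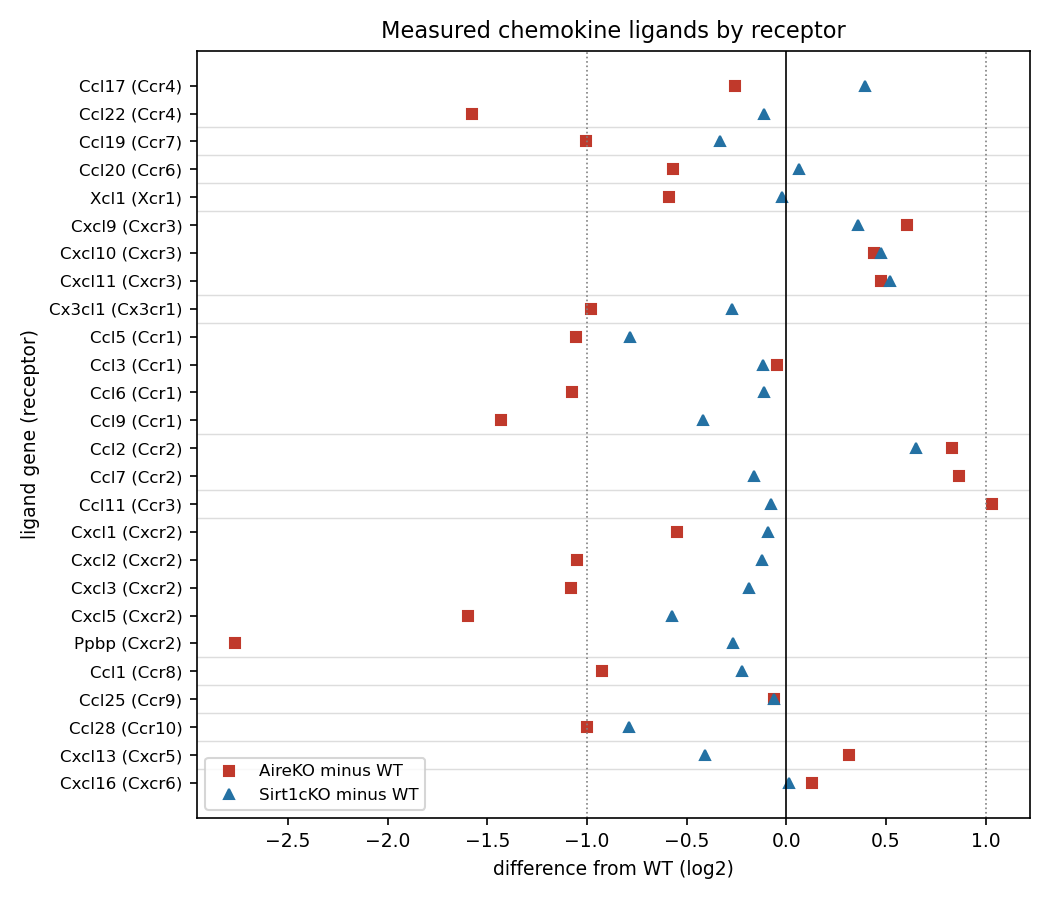
Difference from WT on the log2 scale in AireKO and Sirt1cKO for measured chemokine ligands with a well-established receptor, grouped by that receptor after values had been seen, with dotted lines at 2-fold. The 5 CXCR2 ligands lie below 0 in AireKO and the 3 CXCR3 ligands above 0 in both knockouts.

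Genes whose pair of differences from WT lay nearest to those of a member were found by Euclidean distance over the 3 libraries among 11967 named measured genes. For Ccl22 they were Adh1 (distance 0.010 on the log2 scale) and Tnrc18 (0.025), for Ccl5 Prkar1a (0.014) and Scpep1 (0.023), and for the brightest Ccl19 probe set Mta2 (0.014) and Cmtm4 (0.015). The distance rests on 3 libraries.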

How the data were processed

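Expression was read on Affymetrix Mouse Gene 1-ST arrays, 1 per library. The authors deposited probe-set intensity values on a linear scale, made with RMA per the submitters' processing notes. The RMA version, the annotation and the step back to a linear scale were not given in the sources used here. Log2 was taken here, with no further normalization.

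Probe sets with 1 gene symbol were kept, and the one with the highest mean stood for a gene. Differences are between log2 values, with 2-fold as the threshold. The number of arrays limits the precision. Folds against a value within background are lower bounds. No test was possible. The members and all gene lists were chosen with earlier results of these data known. Named genes were all members, their receptors, the targeted genes, the other ligands past 2-fold or highest in WT, and up to 4 leading genes per list. Ccl2, Ccl7 and genes that went against their list's direction were added after their values were seen. RefSeq tables (GRCm38.p6) gave positions and promoters. Alternatives were other scalings, probe-set rules, thresholds, filters, a pseudocount of 16 and exchanged labels. The 3 remaining Ccl19 probe sets were added after the data were seen. Counting and motif search were tested on simulated data. Scripts ran in Python 3.11.15 with pandas 2.3.3, numpy 2.4.6, matplotlib 3.10.9 and, for loess (span 0.3), statsmodels 0.14.6.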

Additional observations from a re-analysis of the deposited data

Results flagged for a closer look

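Probe sets 10504132 and 10504188 of Ccl19, which took no part in the comparisons, were above background and above their WT value in both knockouts. Probe set 10504132 was higher by 0.89 in AireKO and 1.18 in Sirt1cKO on the log2 scale, and probe set 10504188 by 1.90 and 1.25. With 1 library per genotype, neither has a replicate check.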

How the results depend on the processing

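No value has a replicate error, so a value was taken as changed when it crossed 2-fold or moved by more than 1.5-fold. Scaling alone ended 2 of the 3 AireKO calls. Under quantile normalization, loess, median centring and a median difference set to 0, the count of members lower in AireKO was 1, Ccl22. Ccl19 stood at -0.96, -0.96, -0.73 and -0.82 in that order, and Ccl5 at -0.95, -0.93, -0.79 and -0.87. These scalings move the median of all measured genes from -0.19 to -0.091, -0.069, 0.083 and 0. With the mean of probe sets, Ccl19 was at 0.34 in AireKO and 0.45 in Sirt1cKO. With probe set 10504132 it was at 0.89 and 1.18, with 1 member then higher in Sirt1cKO. With probe set 10504188 it was at 1.90 and 1.25, with 1 member higher in each knockout, and with probe set 10512372 at -0.41 in AireKO. A pseudocount of 16 changed none of the 30 differences and medians by these criteria.

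At 1.5-fold, 5 members were lower (Xcl1 among them, within background) and 1 higher in AireKO, 1 was lower in Sirt1cKO, and 5 were higher in Sirt1cKO than in AireKO. The shares of all measured genes were 23.6%, 8.52%, 8.27% and 11.8% in that order. At 3-fold, 0 were lower in AireKO and 0 higher in Sirt1cKO than in AireKO. Measured-gene filters changed none of the member counts by over 1.5 times.

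With exchanged labels, the AireKO differences became 0.39 for Ccl17, -0.11 for Ccl22, -0.33 for Ccl19, 0.064 for Ccl20, -0.27 for Cx3cl1 and -0.78 for Ccl5, with 0 members lower. Those of Sirt1cKO became -0.26, -1.58, -1.00, -0.57, -0.98 and -1.06, with 3 lower. Between the knockouts the median became -0.63 and Ccl22 -1.47, with 1 member lower and 0 higher. No paired analysis was possible because each genotype had 1 library. Background limits Xcl1 most, in AireKO above all.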

Other observations

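Epithelial lists other than the chemokines gave the following values. The tuft and microfold mimetic list, 9 of 9 above background in every library, had a median difference of -0.81 in AireKO and 0.46 in Sirt1cKO. Gp2, a microfold cell gene, stood at 11.40 in WT, 9.59 in AireKO and 11.48 in Sirt1cKO, and the tuft cell channel gene Trpm5 at 9.26, 8.32 and 9.73. The list was not uniform: the tuft genes Il25 (0.65) and Gnat3 (0.30) were above WT in AireKO, and Spib (-0.35), Sox8 (-0.49) and Tnfaip2 (-0.36) below it in Sirt1cKO. The 17 mature medullary markers had medians of -0.52 and -0.37. Cldn4 (-1.23), Cldn3 (-1.16) and Krt5 (-1.09) were at least 2-fold lower in AireKO, against 8.46% of measured genes. Under quantile normalization Cldn4 alone was, and after median centring 0 of the 17 were. Cd80, a costimulatory ligand, differed by 0.76 and 0.36, and was at least 2-fold higher in AireKO after median centring. The 5 immature medullary markers on the array, Krt5 and Krt14 again among them, had medians of -0.57 and -0.25. The 7 cortical markers had medians of -0.72 and -0.20, led by Ctsl (-1.54 in AireKO) and Prss16 (-1.11).

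Of 14 other listed chemokine receptors, the atypical Ackr receptors included, 7 were measured and 0 were past 2-fold in either knockout. Cxcr5, the receptor of Cxcl13, was above background in WT alone, at 6.81. That value is below the AireKO background of 6.89, so a loss of Cxcr5 in AireKO was not detectable. Of the 5 B cell markers on the array, 4 were above background in WT and 2 in each knockout, with summed intensities of 1013, 1024 and 962. Ms4a1 (6.02 in WT, 6.64 in AireKO) and Cd22 (6.41 and 6.36) dropped out in AireKO, where background was higher. The lower count there does not show a loss.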
